A study of Mus musculus with 13 samples.

Results

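Early cardiomyocytes are the contracting muscle cells of the heart, which is a tube in mouse embryos of stage E8.5 and a looped organ by E10.5. They were chosen by measured values, as barcodes with at least 2000 unique molecular identifiers (UMIs, each 1 captured transcript) and 500 genes that carried at least 500 CPM (counts per 1000000 UMIs) of the troponin T gene Tnnt2, at least 500 CPM of the cardiac actin gene Actc1, and at least 10 UMIs of the myosin light chain genes Myl4 and Myl7 together. The rule kept 562 of 34605 barcodes at or above those floors, of 76191 in the 10 matrices of the whole series. They comprised 163 of 5657 barcodes at E8.5, 192 of 14667 in replicate 1 of E10.5 and 207 of 14281 in replicate 2 of E10.5. The study sequenced single cells of the developing mouse to follow the cardiac conduction system, using whole embryos at the earlier stages and dissected hearts later. All embryos described here were wild-type C57Bl/6J mice with no treatment. Embryos of both stages were taken from the uterus of pregnant mice, and head and limbs were cut off before digestion, so that each library mixed the cells of the heart with those of the trunk. E8.5 was represented by 1 library, its replicate 2, and E10.5 by 2 libraries, with replicate 1 of E8.5 not analysed here. Replicate numbers are those of the library names. The record titles instead call both E8.5 records replicate 1 and both E10.5 records replicate 2. How many embryos were pooled in a library, and whether the 2 E10.5 libraries came from separate pools, is not given in the sources used here, so the spread between them may be technical.

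Heart muscle cells contract through sarcomeres, in which thick filaments of myosin slide along thin filaments of actin, tropomyosin and troponin between Z-discs. Calcium released through the ryanodine receptor starts each beat, and the pump Atp2a2, held back by phospholamban (Pln), takes it up again. In the mouse the linear heart tube begins to beat at about the earlier stage, and at the later stage atrial and ventricular chambers balloon out of it while the atrioventricular canal and outflow tract keep the slower character of the tube. The transcription factors Nkx2-5, Gata4, Tbx5, Tbx20 and Mef2c run this programme together with serum response factor, which binds a motif named the CArG box, and GATA factors bind short motifs built on GATA.

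The upstream sequences of Actc1 and Myl7, which the rule used, and of Nppb and Pln, which rose between the stages, are printed here because each holds a CArG box or a GATA motif. Each is the 250 bases before the first RefSeq start site (GRCm38.p6), read 5′ to 3′ on the strand of the gene, and capitals mark a CArG box or the letters TGATAA or AGATAA on either strand. Actc1 was at chr2:114052876-114053125 on the minus strand, Myl7 at chr11:5898783-5899032 on the minus strand, Nppb at chr4:147985650-147985899 on the plus strand and Pln at chr10:53337436-53337685 on the plus strand.
Actc1: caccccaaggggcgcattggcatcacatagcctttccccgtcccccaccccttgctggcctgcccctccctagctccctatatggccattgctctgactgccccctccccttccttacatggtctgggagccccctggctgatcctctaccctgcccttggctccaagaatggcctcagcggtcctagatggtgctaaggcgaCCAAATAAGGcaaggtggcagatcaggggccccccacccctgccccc
Myl7: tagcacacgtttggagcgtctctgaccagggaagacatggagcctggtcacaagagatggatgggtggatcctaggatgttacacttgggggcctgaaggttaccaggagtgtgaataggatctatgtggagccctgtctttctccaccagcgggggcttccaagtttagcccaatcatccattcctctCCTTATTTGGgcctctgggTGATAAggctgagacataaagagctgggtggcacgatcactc
Nppb: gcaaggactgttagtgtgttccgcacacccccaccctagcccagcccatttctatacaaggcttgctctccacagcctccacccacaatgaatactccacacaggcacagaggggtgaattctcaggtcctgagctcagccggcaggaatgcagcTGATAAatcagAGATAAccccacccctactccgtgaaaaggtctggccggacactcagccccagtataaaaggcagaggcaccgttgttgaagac
Pln: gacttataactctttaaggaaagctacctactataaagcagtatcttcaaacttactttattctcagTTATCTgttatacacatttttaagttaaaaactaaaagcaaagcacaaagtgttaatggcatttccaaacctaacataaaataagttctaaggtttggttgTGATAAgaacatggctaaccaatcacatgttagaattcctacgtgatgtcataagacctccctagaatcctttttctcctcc
A CArG box began 47 bases upstream of the start site in Actc1 and 61 bases upstream in Myl7, where TGATAA followed at 42 bases. In Nppb TGATAA lay 95 and AGATAA 84 bases upstream, and in Pln TGATAA lay 82 bases upstream and AGATAA, on the other strand, 183 bases upstream. Of 32851 promoter windows of this length, 1.47% held a CArG box, 7.94% held TGATAA and 9.99% held AGATAA, so that the GATA letters are common and the CArG box is not. A match describes letters in a window and is not evidence of binding. In the Tnnt2 window of the first start site AGATAA lay 166 bases upstream on the other strand, and in that of the second start site and in that of Myl4 none of these letters was found.

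On the GRCm38 build, Tnnt2 lies at chr1:135836354-135852260 on the plus strand and Actc1 at chr2:114047282-114053548 on the minus strand. Myl7 lies at chr11:5896637-5898782 on the minus strand and Myl4 at chr11:104550663-104595753 on the plus strand, all 4 being protein-coding genes.

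The selected cells made up 2.88% of barcodes at E8.5 (exact 95% binomial interval 2.46 to 3.35), 1.31% in E10.5 replicate 1 (1.13 to 1.51) and 1.45% in E10.5 replicate 2 (1.26 to 1.66). These intervals cover counting error only, and with 1 library at E8.5 the shares were not tested. The condition on Tnnt2 was met by 172, 213 and 222 barcodes in the E8.5 library and the 2 E10.5 libraries, that on Actc1 by 186, 273 and 289, and that on the light chains by 284, 280 and 302. At the edge of the rule the lowest Tnnt2 level inside was 605 CPM at E8.5, where the highest level outside among barcodes that met the other 2 conditions was 411 CPM. The corresponding pairs were 511 and 494 CPM in E10.5 replicate 1 and 516 and 467 CPM in replicate 2, so that the boundary fell in a gap at E8.5 and among closely spaced cells at E10.5. For Actc1 the pairs were 650 and 361 CPM at E8.5 and 524 and 464 CPM and 541 and 472 CPM at E10.5. Only the Tnnt2 condition was missed by 7 barcodes at E8.5 and by 18 and 22 at E10.5.

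Each selected cell at E8.5 held a median of 22486 UMIs, against 14249 and 13462 in the E10.5 libraries, and the summed UMIs were 3881440, 3005728 and 3038589. The median mitochondrial share of UMIs was 2.27% at E8.5 and 3.93% and 3.79% at E10.5, above the 1.47%, 1.98% and 1.94% of other barcodes. A ceiling of 5% mitochondrial UMIs, which the study applied at both stages, was not applied here. It would have removed 14 cells at E8.5 and 68 and 57 cells at E10.5. The 3 pairs of libraries shared 104, 106 and 263 barcodes, near the 110, 113 and 284 that random draws from the list would share, and no selected barcode was shared.

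The genes that made the selection stood far above their level in the other barcodes, which describes the rule and was not tested. Summed over the selected cells, Tnnt2 was at 2624 CPM at E8.5 and at 1758 and 1780 CPM at E10.5, and at 7.36, 4.60 and 4.57 CPM in other barcodes. Actc1, the main actin of the embryonic heart, was at 9703, 6303 and 5753 CPM in the same order. Myl7, a light chain of atrial myosin that the whole heart tube makes, was at 17120, 10720 and 11810 CPM. Myl4, another light chain of the atria, was at 5817, 4986 and 4812 CPM. All 4 were higher in the E8.5 library than in both E10.5 libraries. Single cells ranged widely around these sums, with Tnnt2 between 605 and 8765 CPM at E8.5 around a median of 2509 CPM, between 511 and 5484 CPM around 1676 CPM in E10.5 replicate 1, and between 516 and 6427 CPM around 1535 CPM in replicate 2.

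**Figure D1:**
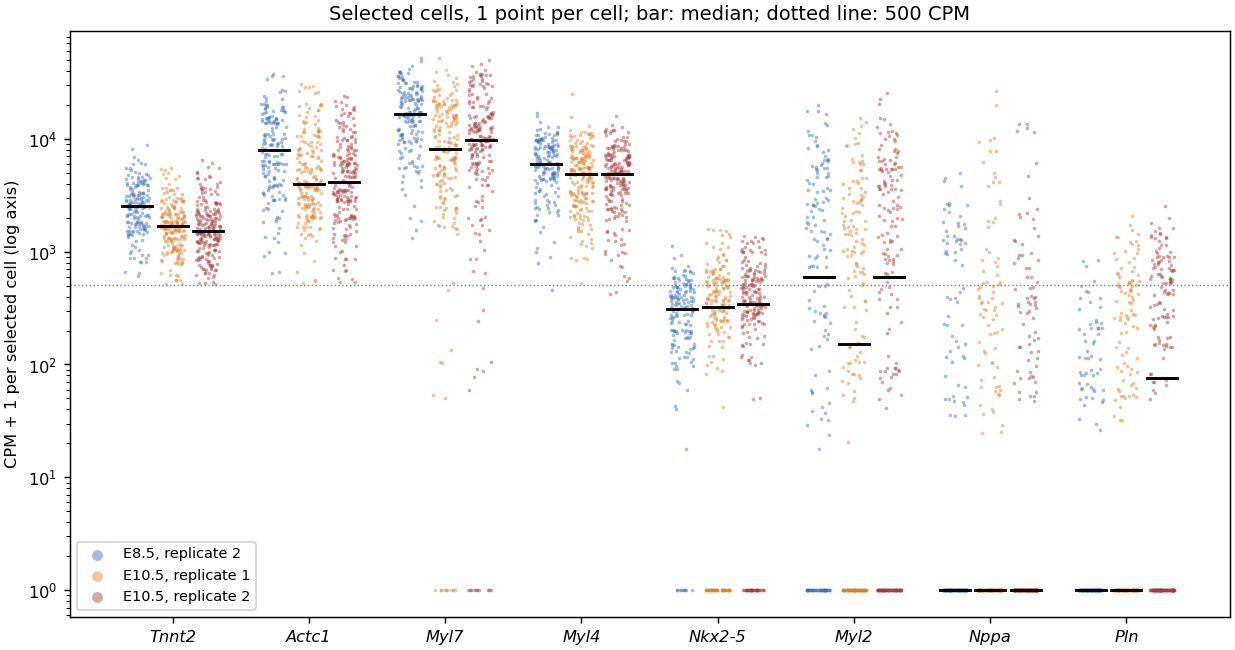
Level of 8 genes in each selected cell, as CPM plus 1 on a log axis, with the libraries in separate colours, 1 point per cell and a black bar at the median. The medians of the rule genes Tnnt2, Actc1, Myl7 and Myl4 are highest in the E8.5 library, Myl7 is low or at 0 in a few E10.5 cells, and Myl2 and Nppa, with medians of 599 and 0 CPM at E8.5, range from cells without a UMI to a highest cell of 20041 and 4936 CPM there.

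Genes that the rule did not use carried the cardiomyocyte label. Nkx2-5, the homeobox factor of the heart fields, was at 311, 353 and 377 CPM in selected cells and at 2.27, 2.07 and 1.91 CPM in other barcodes. With each cell thinned to 2000 UMIs, 42.9% of cells at E8.5 and 45.3% and 46.9% at E10.5 had a UMI of Nkx2-5, against 0.491%, 0.387% and 0.362% of other barcodes. Without thinning the shares were 94.5%, 77.1% and 83.1% at the unequal depths given above. Ttn, the giant spring of the sarcomere, was at 1188, 1042 and 974 CPM against 1.76, 2.14 and 2.15 CPM. Of 7945 genes with at least 5 CPM in the selected cells of all 3 libraries, 909 (11.4%) were at least 2-fold above other barcodes in each library. Every one of the 12 thin filament genes and 8 of 9 thick filament genes were among them, as were 14 of 15 cardiac transcription factors and none of the 15 S phase, 16 G2/M phase and 13 mitochondrial genome genes. The contrast with other barcodes follows from the selection and is given as a description.

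A small group of the selected cells at E10.5 went against the label. Cells with at least 3 UMIs over 10 genes of skeletal muscle (the myogenic factors Myog, Myod1, Myf5 and Myf6, the precursor factors Pax3 and Pax7, acetylcholine receptor subunits and the fusion gene Tmem8c) numbered 2 at E8.5, 17 in E10.5 replicate 1 and 15 in replicate 2. Among other barcodes 483 of 5494, 1537 of 14475 and 1418 of 14074 met the same mark. The mark alone thus does not set the marked cells apart from the rest of the embryo. In the marked cells of the E10.5 libraries Myog, which commits precursors to skeletal muscle, was at 460 and 791 CPM, against 0.756 and 0 CPM in the unmarked cells. Myog is a gene of the mark, so this difference follows from the mark. Mylpf, Myl7, Nkx2-5 and Myl4, given next, are not part of it. Mylpf, the light chain of fast skeletal fibres, was at 3583 and 5606 CPM against 140 and 114 CPM. Myl7 was at 4282 and 82.1 CPM in marked cells against 11603 and 12776 CPM, and Nkx2-5 at 77.6 and 0 CPM against 390 and 408 CPM. The marked cells of replicate 2 thus held little Myl7 and no Nkx2-5, while those of replicate 1 were mixed. Myl4 was at 2701 and 1962 CPM in the marked cells, against 5298 and 5047 CPM in the unmarked ones. Embryonic skeletal muscle is known to make Tnnt2, Actc1 and Myl4 too. Of the marked cells, 13 of 17 and 15 of 15 had fewer than 10 UMIs of Myl7. At E8.5 Myog, Myf5, Myf6 and Myh3 were at 0 in the selected cells, and the 2 marked cells held 6133 CPM of Myl7. The mark missed some cells of the same kind. Among unmarked cells 3 in E10.5 replicate 1 and 2 in replicate 2, and none at E8.5, held at least 1000 CPM of Mylpf, fewer than 10 UMIs of Myl7 and no Nkx2-5, a count made after the values were seen. These 5 cells remain in every value given without the marked cells, and their part in those values was not tested. Where a stage difference changed its call or direction without the marked cells, both forms are given, or for some lists only the count of calls.

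**Figure D2:**
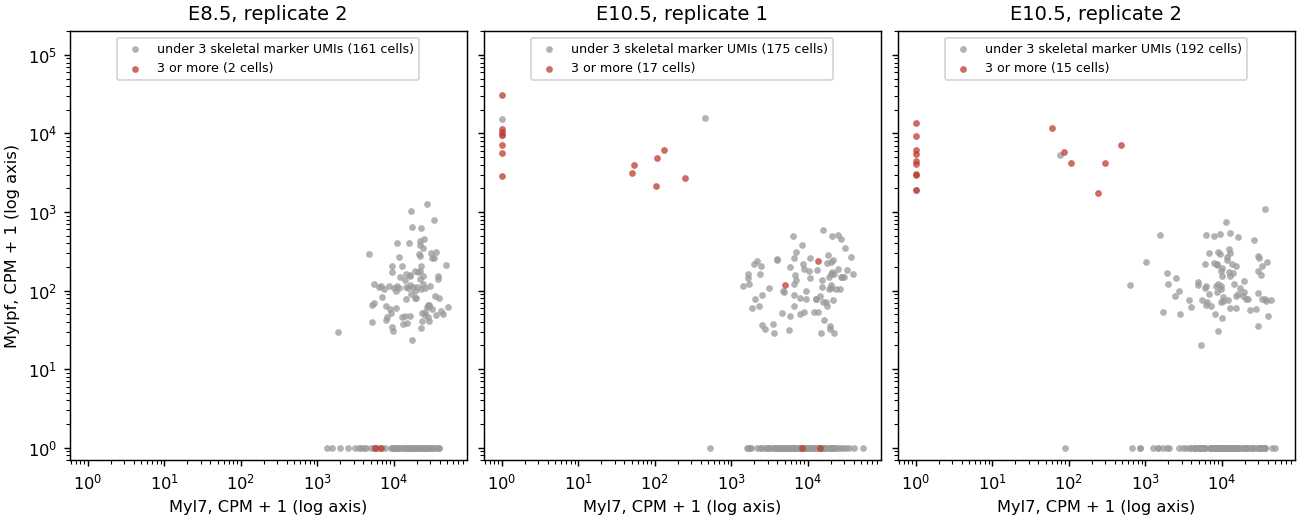
Mylpf against Myl7 in each selected cell, both as CPM plus 1 on log axes, with 1 panel per library and cells with 3 or more UMIs of the skeletal list in red. The red cells number 2, 17 and 15, and at E10.5 most of them lie at high Mylpf and low Myl7, apart from the grey cells.

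The stages were compared on UMIs summed over the selected cells of each library with edgeR's quasi-likelihood test, and a gene was called where its Benjamini-Hochberg adjusted p was under 0.05 and its change at least 2-fold. Of 10691 genes tested, 530 (4.96%) were higher and 375 (3.51%) lower at E10.5. Without the skeletal-marked cells 433 of 10395 (4.17%) were higher and 368 (3.54%) lower. The test has 1 residual degree of freedom, so that the E8.5 library is assumed to vary like the 2 E10.5 libraries, and at E8.5 the stage and the library cannot be told apart. In this fit edgeR gave infinite prior degrees of freedom at a common dispersion of 0.00537, so that the printed SE and p rest on a spread pooled over all genes and treated as known. Without the filter on low counts edgeR called 0 genes in either direction, with 3070 genes at an unadjusted p under 0.05, and DESeq2 called 76 higher and 182 lower. The 2 E10.5 libraries differed by a median of 0.148 on the log2 scale over 6591 genes, with 16 genes over 2-fold. Values given without an E10.5 library come from a wider fit of 8 libraries, with the hearts of E12.5 to E16.5 in it. With library totals in place of TMM (trimmed mean of M values) factors the median of all genes moved from 0.03 to 0.18 and the share of calls that were higher from 58.6% to 76.9%, so small changes depend on the scaling. In summed cells, a smaller share of cells that use a gene and less RNA per cell cannot be told apart.

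**Figure D3:**
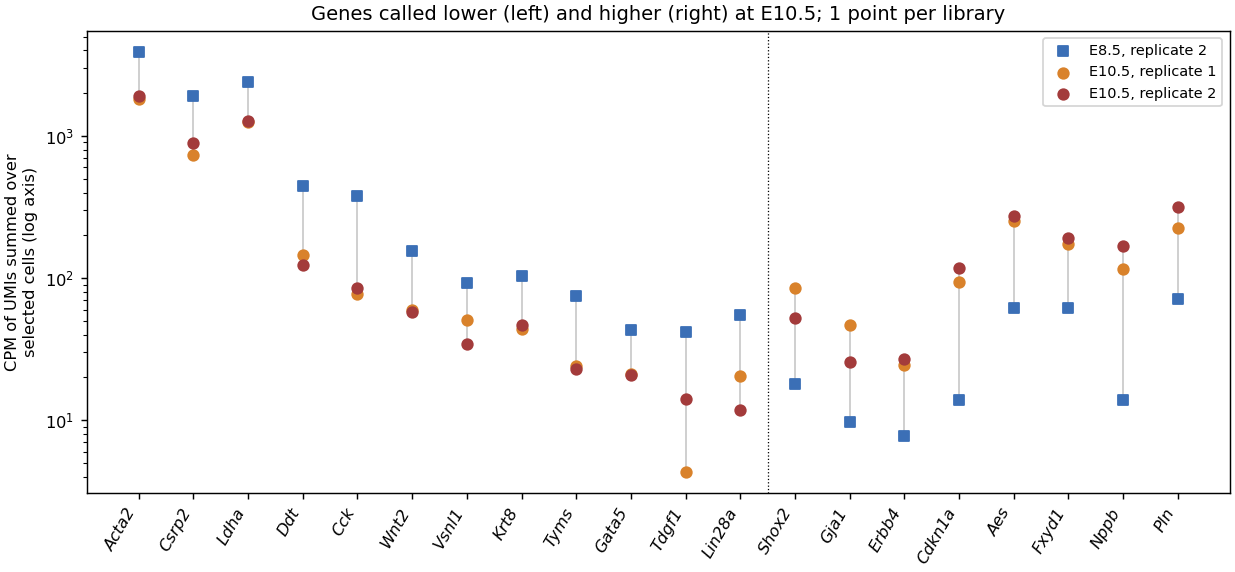
Level of 20 called genes in the selected cells of each library, as CPM of summed UMIs on a log axis, with a square for E8.5 and circles for the 2 E10.5 libraries. The E8.5 square lies above both circles for the 12 genes at the left, such as Cck at 380 against 76.9 and 85.2 CPM, and below both for the 8 genes at the right, such as Nppb at 13.9 against 115 and 168 CPM.

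Genes of the contractile apparatus are given next, beside 4.96% of all genes called higher and 3.51% called lower. None of the 9 thick filament genes tested was called, with a median log2 change of 0.00. Myh6 and Myh7, the α and β heavy chains of cardiac myosin, were at 296 and 342 CPM at E8.5, at 375 and 483 CPM in E10.5 replicate 1 and at 300 and 570 CPM in replicate 2. Myh7 was higher by 0.48 on the log2 scale (SE 0.11, adjusted p = 8.52e-05 in edgeR), below the 2-fold limit, and Myh6 by 0.04 (SE 0.11, adjusted p = 0.835). Myl2 and Myl3, light chains of ventricular myosin, were at 2259, 1673 and 2257 CPM and at 1727, 1544 and 1681 CPM, with no call. These and the further structural genes outside the naming rule were chosen after their values were seen.

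Of 12 thin filament genes only Acta2 was called. The median log2 change of the list was 0.08 and turned to −0.32 without the skeletal-marked cells. Acta2, the smooth muscle actin that early heart muscle makes for a time, was at 3882 CPM at E8.5 and at 1822 and 1919 CPM at E10.5 and fell by 1.20 on the log2 scale (SE 0.09, adjusted p = 4.94e-41), or by 1.20 without the skeletal-marked cells. It was at 35.4, 15.4 and 18.8 CPM in other barcodes, and its change there did not differ detectably from that in selected cells (difference 0.07, SE 0.08, adjusted p = 0.807). Tnni1, the slow troponin I of the embryonic heart, was at 2545, 2007 and 2066 CPM, and the cardiac form Tnni3 at 803, 747 and 701 CPM. Tnnc1, the calcium-binding troponin, was at 1842, 1677 and 1636 CPM. Tpm1, the main tropomyosin, was at 6936, 4276 and 4285 CPM and lower by 0.84 (SE 0.08, adjusted p = 1.66e-21), short of 2-fold.

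None of 17 Z-disc and M-band genes was called, with 10 changes above and 7 below 0. Ankrd1, a stretch-responsive partner of titin, was at 1386, 931 and 1117 CPM. Cryab, a small heat shock protein of the Z-disc, was at 1048, 1003 and 1053 CPM and at E8.5 lay within the range of the E10.5 libraries. Actn2, which crosslinks actin at the Z-disc, was at 51.3, 108 and 110 CPM and was higher by 0.94 (SE 0.16, adjusted p = 3.82e-08), just under 2-fold. Desmin (Des), the intermediate filament of muscle, was at 279, 401 and 462 CPM.

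The smooth muscle list, whose genes early heart muscle shares, had 2 of 7 tested genes lower and none higher. Besides Acta2 these included Lmod1, which nucleates actin filaments, at 56.9, 22.6 and 27.3 CPM (log2 change −1.33, SE 0.18, adjusted p = 5.39e-12). Tagln, the actin-binding protein transgelin, was at 539, 579 and 646 CPM with a log2 change of 0.04, and Myl9 at 1137, 916 and 956 CPM, lower by 0.43 (SE 0.09, adjusted p = 6.38e-05). Over the list 5 of 7 changes were negative, 4 genes were lower and none higher at an adjusted p under 0.05, and the median log2 change was −0.43. At that limit and any fold 15.5% of all genes were lower and 10.8% higher. Csrp2, a LIM protein of smooth muscle, was at 1917, 731 and 889 CPM and fell by 1.39 (SE 0.09, adjusted p = 1.38e-49). It also fell by more than in other barcodes, by 0.86 on the log2 scale (SE 0.09, adjusted p = 3.05e-06), under the 2-fold limit.

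Of 12 calcium handling genes tested, 3 were called higher and none lower, beside 4.96% and 3.51% of all genes. Pln was at 71.6 CPM at E8.5 and at 227 and 315 CPM at E10.5, and both E10.5 libraries lay above the E8.5 library. The change was 1.78 on the log2 scale (SE 0.14, adjusted p = 8.36e-36), or 1.86 without the skeletal-marked cells. The other 2 calls, Sln and Casq2, were weaker or not tested without the skeletal-marked cells. Sln, the sarcolipin that regulates the same pump in atria and skeletal muscle, had 2 UMIs at E8.5 and 479 at E10.5, a ratio of 154 (95% counting interval 42.3 to 1274), and its fitted log2 change was 7.03 with the marked cells and 3.04 (adjusted p = 0.0139) without them. Of the Sln UMIs left in unmarked cells, 17 of 18 in replicate 1 and 4 of 10 in replicate 2 lay in the 5 cells with high Mylpf and low Myl7. Casq2, the calcium store of the reticulum, was at 1.55, 7.99 and 6.25 CPM and was not among the genes tested once the marked cells were left out. Atp2a2 was at 353, 547 and 453 CPM, higher by 0.35 (SE 0.11, adjusted p = 0.00572), and Ryr2 at 65.2, 104 and 98.7 CPM, higher by 0.49 (SE 0.15, adjusted p = 0.00653), both short of 2-fold.

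Of 9 ion channel genes tested, 2 were called higher, and 3 without the skeletal-marked cells, beside 4.96% and 4.17% of all genes. Cacna1h, a T-type calcium channel of the embryonic heart, was at 10.3, 27.3 and 23.0 CPM (log2 change 1.14, SE 0.26, adjusted p = 0.000124). Kcnj3, a subunit of the acetylcholine-gated potassium channel, had 2 UMIs at E8.5 and 41 over the 2 E10.5 libraries, a ratio of 13.2 with a counting interval of 3.42 to 112. Hcn4, the pacemaker channel of the early tube and sinus node, was at 6.44 CPM at E8.5 and at 3.66 and 1.98 CPM at E10.5 (log2 change −1.33, SE 0.56, adjusted p = 0.0615), which did not pass.

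The connexins and natriuretic peptides held 3 calls among 5 tested genes, all higher, beside 4.96% of all genes. The list median was 1.74 beside 0.03 over all genes. Nppb, the B-type natriuretic peptide of trabecular muscle, was at 13.9 CPM at E8.5 and at 115 and 168 CPM at E10.5 (log2 change 3.20, SE 0.19, adjusted p = 1.46e-58). Gja1, which forms the gap junctions of working muscle, was at 9.79, 46.9 and 25.7 CPM (1.74, SE 0.24, adjusted p = 4.02e-11). Gja5, the fast connexin of atria and the trabeculae, was at 1.03, 10.6 and 11.8 CPM (3.26, SE 0.58, adjusted p = 4.28e-07). All 3 were called without the skeletal-marked cells as well. Nppa, the atrial peptide that marks the chambers as they form, was at 482, 764 and 544 CPM, and its change of 0.29 (SE 0.10, adjusted p = 0.0215) was smaller than the difference between the 2 E10.5 libraries.

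The core transcription factors gave 1 call, a lower one, beside 3.51% of all genes called lower. Of 15 tested genes it was Gata5, a GATA factor of early heart muscle and endocardium, which was at 43.0 CPM at E8.5 and at 21.3 and 20.7 CPM at E10.5 and fell by 1.18 (SE 0.19, adjusted p = 2.96e-08). Nkx2-5 had a log2 change of 0.09 (SE 0.11, adjusted p = 0.625). Tbx20, a T-box factor of the chambers, was at 109, 142 and 147 CPM, and Gata4 at 61.8, 58.9 and 49.0 CPM. Mef2c, a MADS box factor of muscle, was at 279, 379 and 411 CPM with a log2 change of 0.36 (SE 0.11, adjusted p = 0.00754), which was −0.16 and did not pass without the skeletal-marked cells (SE 0.11, adjusted p = 0.324). Tbx5, whose graded level shapes atria and left ventricle, was at 39.7, 66.9 and 46.4 CPM, a change of 0.37 that did not pass (SE 0.17, adjusted p = 0.110), and that was 0.46 (adjusted p = 0.0343) without the marked cells.

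**Figure D4:**
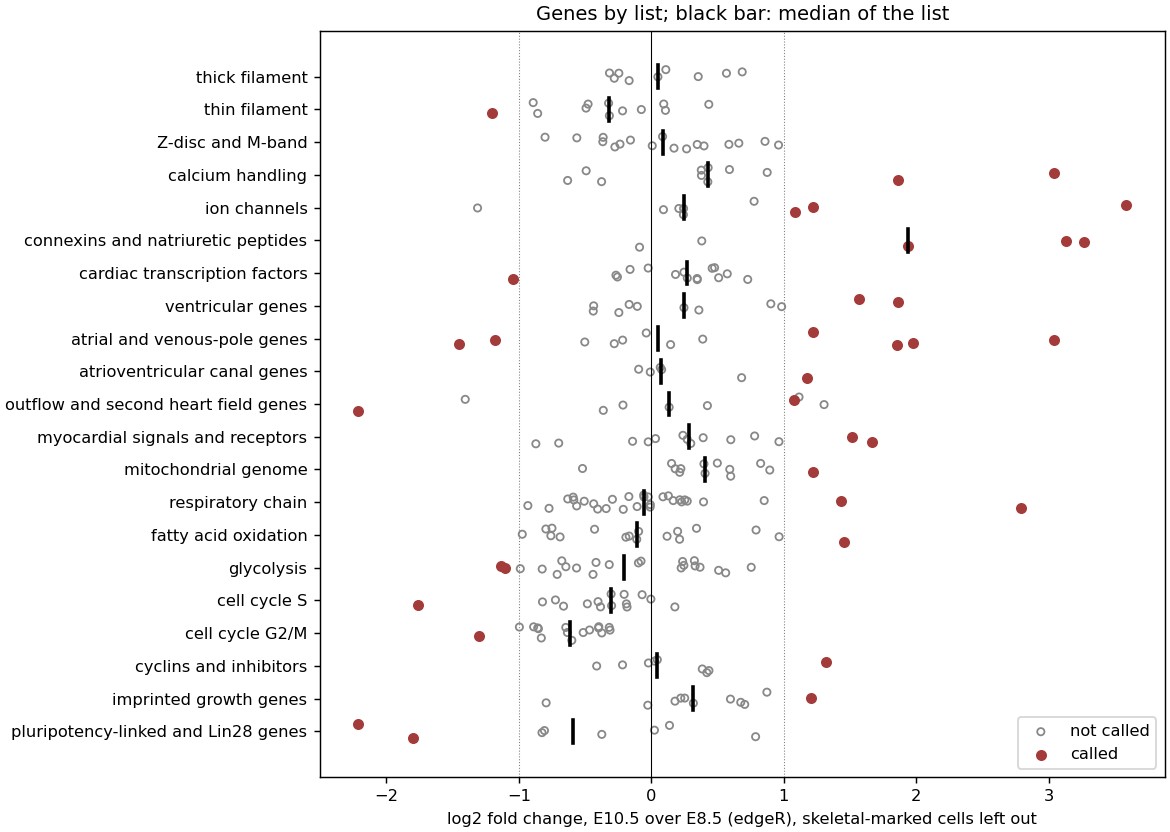
Log2 fold change of E10.5 over E8.5 for each gene of 21 lists, from edgeR without the skeletal-marked cells, with filled red points for called genes, open points for the rest and a black bar at the median of each list. The thick filament and Z-disc lists centre near 0 (medians 0.05 and 0.08), the thin filament list lies at −0.32, the connexins and natriuretic peptides lie to the right, and the G2/M list, with a median of −0.62, lies to the left.

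The selected cells differed in the ventricular gene Myl2 and the atrial gene Nr2f2 at both stages, and some genes of the atria did not follow Nr2f2. Myl2, which marks ventricular muscle, was found in 52.1% of cells at E8.5 and in 46.4% and 54.6% at E10.5 after thinning to 2000 UMIs, against 0.673%, 0.656% and 0.739% of other barcodes. Nr2f2, the nuclear receptor that specifies atrial muscle, was found in 8.59%, 20.8% and 13.5% of selected cells, and in 10.2%, 18.1% and 16.8% of other barcodes, so that its share was not set apart from the rest of the embryo. In the unmarked cells, 84 of 161 held Myl2 only at E8.5, 13 held Nr2f2 only, 1 held both and 63 held neither. In E10.5 replicate 1 the counts were 81, 29, 6 and 59 of 175, and in replicate 2 they were 107, 21, 6 and 58 of 192. Cells with both were thus rare in each library at this depth, while a UMI of neither gene leaves a cell unplaced. Here and below, cells with or without Myl2 or Nr2f2 are classed by the thinned UMIs, while levels use all UMIs. With all UMIs, 25, 23 and 17 cells of the class with neither gene held Myl2, and 34, 33 and 35 held Nr2f2. Of the cells with Nr2f2 only, 7, 5 and 3 then held Myl2.

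Some chamber genes varied with Myl2 or against it in all 3 libraries. Across unmarked cells Spearman's rho with Myl2 at E8.5, E10.5 replicate 1 and E10.5 replicate 2 was 0.51, 0.59 and 0.57 for Myh7, 0.50, 0.63 and 0.62 for Pln, and 0.73, 0.49 and 0.69 for Myl3. For Irx4, the homeobox factor that holds ventricular identity, it was 0.48, 0.48 and 0.42. For Nr2f2 it was −0.54, −0.53 and −0.58, and for its relative Nr2f1 −0.52, −0.45 and −0.50. These correlations describe cells that share a library and the depth of its UMIs, and they carry no test. Only genes with a UMI in at least 20% of cells were compared, and 8 genes reached a rho of 0.4 or beyond in each library, the remaining ones being Mpped2 (0.47, 0.59 and 0.48) and Lbh (0.45, 0.44 and 0.40).

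Cells with Myl2 only and cells with Nr2f2 only differed widely in the level of other genes. Pln was at 138, 455 and 469 CPM in cells with Myl2 only, and at 15.1, 12.3 and 11.1 CPM in cells with Nr2f2 only. Irx4 was at 53.6, 43.2 and 40.5 CPM in the former and at 0 in the latter in every library. Hey2, a Notch target that compacts the ventricular wall, was at 27.6, 53.3 and 51.7 CPM against 0, 7.37 and 0 CPM. In the other direction Vsnl1, a neuronal calcium sensor present in atrial muscle, was at 19.6, 3.86 and 1.24 CPM against 198, 152 and 126 CPM. Stard10, a lipid transfer protein of the atria, was at 11.1, 17.0 and 24.9 CPM against 163, 152 and 196 CPM. Wnt2, a ligand of the venous pole, was at 69.5, 31.7 and 20.5 CPM against 251, 155 and 181 CPM. Myh6 was at similar levels in the 2 classes, at 299.7, 319.6 and 300.03 CPM against 266, 383 and 369 CPM. Genes named above for the atria did not all follow Nr2f2. Nppa was at 800, 1059 and 596 CPM in cells with Myl2 only, and at 216, 204 and 336 CPM in cells with Nr2f2 only. Myl7 was at 17938, 8546 and 13026 CPM against 17234, 14374 and 10878 CPM, with no shared direction. Apart from Myh6 and Myl7, every one of these contrasts had the same direction in the 3 libraries, with 13 to 29 cells in the Nr2f2 class. Pln, Irx4, Hey2, Stard10 and Wnt2 also varied with or against Myl2 across these same cells in each library. For them the shared direction is therefore not a separate result.

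**Figure D5:**
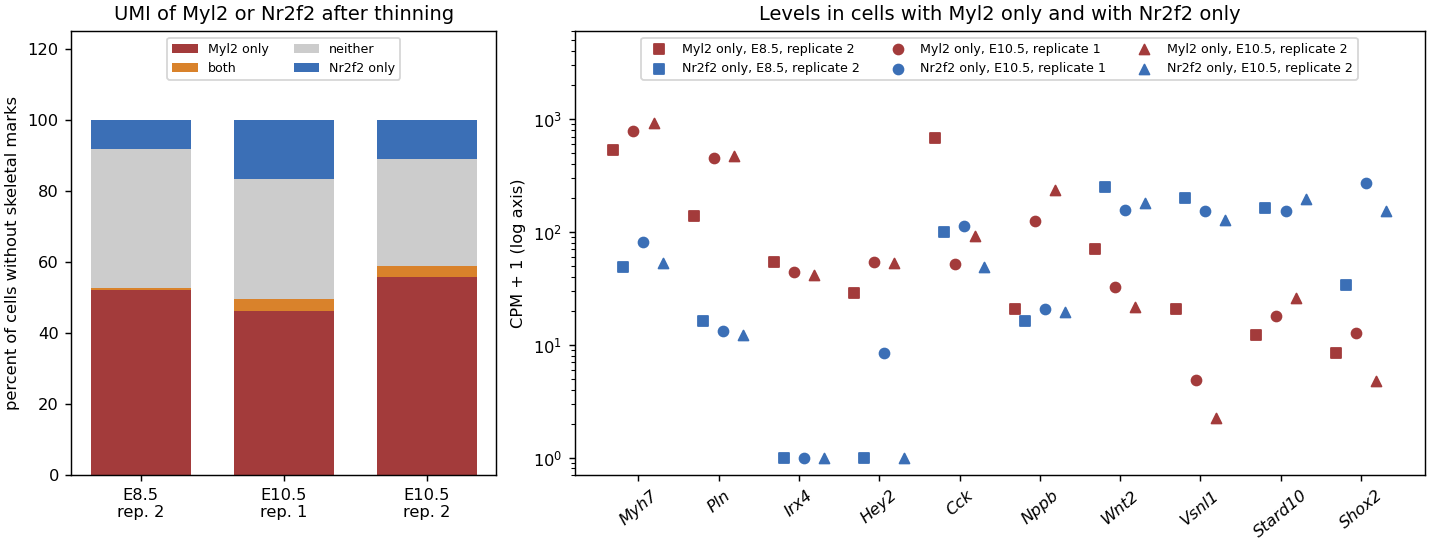
Left, percent of the cells without skeletal marks that held a UMI of Myl2 only, of both, of neither and of Nr2f2 only after thinning, by library. Right, level of 10 genes as CPM plus 1 on a log axis in the cells with Myl2 only (red) and with Nr2f2 only (blue), where squares stand for E8.5 and circles and triangles for E10.5 replicates 1 and 2. Red points lie above blue ones for Myh7, Pln, Irx4, Hey2 and Nppb and below them for Wnt2, Vsnl1, Stard10 and Shox2, while for Cck the order differs between libraries.

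Between the stages, with 4.96% of all genes higher and 3.51% lower, 2 of 11 ventricular genes tested were higher and none lower. They were Pln and Slit2, a guidance ligand, which was at 5.67, 16.3 and 23.7 CPM (log2 change 1.67, SE 0.32, adjusted p = 3.68e-06) and stood at 7.50, 19.4 and 18.7 CPM in other barcodes. Irx4 was at 29.1, 21.0 and 23.4 CPM, Hey2 at 14.4, 27.3 and 28.6 CPM and Mycn, the transcription factor N-Myc of the compact wall, at 21.6, 43.2 and 42.1 CPM, none of them past 2-fold. Hand1, a bHLH factor of the left ventricle, was at 39.2, 50.6 and 45.4 CPM. The rise of Pln appeared in cells with and without a Myl2 UMI after thinning, but not in the cells with Nr2f2 only. In the latter Pln was at 15.1, 12.3 and 11.1 CPM, and in cells with neither gene at 7.47, 59.8 and 202 CPM. In all cells with a Myl2 UMI Pln went from 137 CPM to 439 and 464 CPM (log2 change 1.61, SE 0.20, adjusted p = 2.49e-13), and in all cells without one from 9.09 CPM to 44.3 and 156 CPM (3.31, SE 0.42, adjusted p = 9.41e-09).

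Nppb likewise rose from 19.4 to 131 and 224 CPM in cells with Myl2 (3.09, SE 0.28, adjusted p = 1.37e-25) and from 9.09 to 114 and 118 CPM in cells without it (3.54, SE 0.32, adjusted p = 2.46e-13). In cells with Nr2f2 only it was at 15.1, 19.7 and 18.5 CPM, and in cells with neither gene at 7.47, 160 and 149 CPM. Nppa did not pass in cells with Myl2, at 797, 1078 and 579 CPM (log2 change −0.06, adjusted p = 0.867), and rose in cells without it, from 189 to 589 and 602 CPM (1.53, SE 0.16, adjusted p = 4.86e-11). Gja1 passed in cells with Myl2 (2.12, SE 0.31, adjusted p = 2.15e-09) and not in those without (1.20, SE 0.53, adjusted p = 0.106). Whether these changes differ between cells with and without Myl2 was not tested.

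Of 12 atrial and venous-pole genes tested, 4 were higher and 2 lower at E10.5, beside 4.96% and 3.51% of all genes. Shox2, which keeps the sinus venosus in its pacemaker state, was at 18.0, 84.8 and 52.7 CPM (log2 change 1.78, SE 0.20, adjusted p = 2.65e-17). Tbx18, a T-box factor of the sinus horns and epicardium, was at 5.67, 30.9 and 15.5 CPM (1.88, SE 0.31, adjusted p = 2.74e-08). Nr2f1 was at 44.3, 143 and 81.0 CPM (1.19, SE 0.16, adjusted p = 4.13e-12), and its change was 0.76 and no longer called without E10.5 replicate 1. The fourth was Sln, most of whose UMIs lay in cells with skeletal muscle transcripts, as given above. For these 3 the value of E10.5 replicate 1 was the highest, and in other barcodes they also stood higher at E10.5, with Shox2 at 1.37, 8.70 and 8.56 CPM. Without a Myl2 UMI after thinning, Shox2 rose from 29.9 to 173 and 133 CPM (2.23, SE 0.25, adjusted p = 2.48e-10), and with one it was at 7.35, 24.2 and 4.74 CPM and did not pass (adjusted p = 0.326).

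The genes that fell were Wnt2 and Vsnl1. Wnt2 was at 155 CPM at E8.5 and at 59.6 and 57.6 CPM at E10.5 (log2 change −1.55, SE 0.14, adjusted p = 7.53e-26). Vsnl1 was at 91.7, 50.9 and 34.2 CPM (−1.25, SE 0.16, adjusted p = 1.08e-13), and its change of −0.99 without E10.5 replicate 2 fell just short of 2-fold. Both stood highest in the cells without Myl2 and were lower at E10.5 in both classes, Wnt2 falling by 1.36 with Myl2 and by 1.29 without it. Nr2f2 itself was at 62.1, 97.1 and 98.7 CPM and below the 2-fold limit, at levels close to the 63.5, 105 and 101 CPM of other barcodes. Hey1, an atrial Notch target, was at 20.9, 27.9 and 18.8 CPM and was not called.

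In the atrioventricular canal list 1 of 6 tested genes was called, a higher one, beside 4.96% of all genes called higher. Rspo3, a Wnt agonist, was at 46.6, 93.8 and 128 CPM (log2 change 1.10, SE 0.16, adjusted p = 1.08e-10), with a change of 0.87 and no call without E10.5 replicate 2. Bmp2, the ligand that patterns the canal, was at 32.2, 44.9 and 62.9 CPM and higher by 0.60 (SE 0.18, adjusted p = 0.00566), short of 2-fold. The T-box repressors Tbx2 and Tbx3, which keep canal muscle from chamber differentiation, were at 12.4, 13.0 and 11.2 CPM and at 14.2, 15.6 and 13.8 CPM. Msx2 was at 12.1, 12.6 and 13.8 CPM and Cpne5 at 31.7, 34.3 and 33.2 CPM. None of these 4 genes passed, with log2 changes between −0.18 and −0.02.

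The outflow and second heart field list had 2 genes higher and 1 lower of 9 tested, beside 4.96% and 3.51% of all genes. Without the skeletal-marked cells 1 was higher and 1 lower. Tdgf1, the Nodal co-receptor Cripto of outflow muscle, was at 41.5 CPM at E8.5 and at 4.33 and 14.2 CPM at E10.5 and fell by 2.30 (SE 0.23, adjusted p = 9.28e-22). It was almost absent elsewhere, at 0.0925, 0.0299 and 0.0349 CPM in other barcodes, and it fell in cells with and without Myl2 by 1.98 and 2.30. The E10.5 libraries differed widely, and the fall was 1.66 without E10.5 replicate 1 and 3.40 without replicate 2. Bmp4, a ligand of the outflow tract, was at 49.7, 85.2 and 137 CPM (1.02, SE 0.16, adjusted p = 2.44e-09), which without E10.5 replicate 2 was 0.64 and not called. Isl1, the LIM factor of heart progenitors, was at 28.6, 34.3 and 36.5 CPM, and Sema3c, a guidance ligand of the outflow tract, at 31.2, 27.3 and 42.1 CPM. Neither passed, with log2 changes of 0.16 and 0.01.

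Signalling genes of the myocardium were called in 2 of 15 cases, both higher, beside 4.96% of all genes. Erbb4, the neuregulin receptor that trabeculae need, was at 7.73, 24.6 and 27.0 CPM (log2 change 1.59, SE 0.28, adjusted p = 1.93e-07). Vegfa, the endothelial growth factor, was at 5.93, 17.3 and 16.8 CPM (1.37, SE 0.34, adjusted p = 0.000398). Erbb2, the partner receptor of Erbb4, was at 14.9, 23.0 and 19.4 CPM without a call. Bmp10, the trabecular ligand, was at 11.3, 19.3 and 16.1 CPM and Bmp7 at 63.1, 80.8 and 80.6 CPM. The BMP target Id1 was at 166, 76.5 and 113 CPM and lower by 0.94 (SE 0.13, adjusted p = 3.00e-11), short of 2-fold, and was called without E10.5 replicate 2 (−1.25).

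The genes with the largest change among abundant genes that stood above the other barcodes included several outside the lists. Cck, which encodes the peptide cholecystokinin, was at 380 CPM at E8.5 and at 76.9 and 85.2 CPM at E10.5 and fell by 2.37 (SE 0.12, adjusted p = 3.84e-81). The fall lay mainly in cells with a Myl2 UMI, where Cck went from 667 to 59.9 and 90.1 CPM (log2 change −3.25, SE 0.19), while in those without it was at 110, 82.9 and 48.2 CPM (−0.86, SE 0.23). The difference of these changes was not tested. Ddt, a tautomerase related to macrophage inhibitory factor, was at 443, 145 and 124 CPM (−1.87, SE 0.11, adjusted p = 1.58e-57). Aes, a Groucho-type corepressor, was at 61.6, 253 and 274 CPM (1.95, SE 0.14, adjusted p = 4.94e-41), and other barcodes moved with it from 22.7 to 124 and 120 CPM. Fxyd1, the phospholemman that regulates the sodium pump, was at 61.3, 174 and 193 CPM (1.43, SE 0.14, adjusted p = 4.23e-21) and was chosen after its values were seen.

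Several of the highest calls came from the skeletal-marked cells. Tnnc2, the troponin C of fast fibres, was at 9.79, 234 and 253 CPM, a log2 change of 4.48 that fell to 0.81 without them. For Mylpf the change was 2.37 with the marked cells and 0.23 without, and Il17b, a cytokine gene, was at 7.99, 82.5 and 69.8 CPM with a change of only 0.93 without them. Myog, with 351 UMIs in the selected cells at E10.5 and 0 at E8.5, was at least 75.1-fold higher at E10.5 against a floor of 3 counts over the E8.5 library. Of the 10 skeletal genes tested 9 were called higher, and without the marked cells 1 of 2 tested, Myh3, which then rested on 1 cell with 19 UMIs in replicate 1 and 2 cells with 11 UMIs in replicate 2. The skeletal list includes the genes of the mark, so their loss without the marked cells follows in part from the mark. Cdkn1a, the cell cycle inhibitor p21, was at 13.9, 93.5 and 118 CPM (log2 change 2.78), and its change was 1.31 (adjusted p = 1.38e-06) without the marked cells.

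Among genes of energy metabolism the counts of calls can be read against the 4.96% of all genes that were higher and the 3.51% that were lower. Of 22 glycolysis genes 1 was called, Ldha, which turns pyruvate into lactate, at 2401 CPM at E8.5 and 1245 and 1276 CPM at E10.5 (log2 change −1.07, SE 0.09, adjusted p = 1.98e-31). Without the marked cells Eno3, the muscle enolase, was called too (−1.14). At any fold 10 were lower and 3 higher, beside 15.5% lower and 10.8% higher over all genes. Gapdh was at 5309, 3808 and 3895 CPM and Aldoa at 1623, 1139 and 1174 CPM, both lower by about the same step (−0.61 and −0.63, SE 0.09). The fall of Ldha was shared by other barcodes, at 2131, 1268 and 1263 CPM, and did not differ detectably from it (−0.11, SE 0.07, adjusted p = 0.583). Of 17 fatty acid oxidation genes only Cd36, the fatty acid transporter, was called, at 5.67, 23.3 and 21.7 CPM (1.84, SE 0.31, adjusted p = 7.82e-08, or 1.45 without the marked cells). Fabp3, the heart fatty acid carrier, was at 210, 195 and 208 CPM and was not called (log2 change −0.21, SE 0.12).

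In the respiratory chain list, which also holds the myoglobin gene Mb, 2 of 30 tested genes were called, both at low level. The median log2 change was −0.11 over both the fatty acid and the respiratory lists and turned to 0.03 in both with library totals. Cox8b, the muscle subunit of cytochrome oxidase, was at 1.55, 17.0 and 28.3 CPM (log2 change 3.70, or 2.79 without the marked cells). Mb, the oxygen store myoglobin, was at 4.38, 13.3 and 13.5 CPM (1.46, SE 0.39, adjusted p = 0.00145). None of the 13 genes of the mitochondrial genome was called, and without the skeletal-marked cells 1 was, mt-Nd6 (log2 change 1.22, against 0.97 with them). Eno3 and mt-Nd6 were named after their values were seen. Of the 13 genes 12 were above 0 with a median change of 0.36, and 8 were higher at an adjusted p under 0.05. The same genes stood higher at E10.5 in other barcodes, at 15564 CPM in sum at E8.5 and 19859 and 19323 CPM at E10.5, against 25890, 43181 and 39899 CPM in selected cells. The mitochondrial share of UMIs also moves with the handling of cells, and its part in this result was not tested.

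Genes of the G2/M and S phases gave 3 calls, all lower at E10.5. Among all genes 3.51% were called lower, and 15.5% were lower at an adjusted p under 0.05 and any fold. All 16 G2/M genes had a negative change, with a median of −0.65, and 15 were lower at an adjusted p under 0.05, but only 2 were called at 2-fold, and 1 without the skeletal-marked cells, where Bub1 fell just short of 2-fold. The 16 were negative also with library totals and in DESeq2. Cdk1, the kinase that drives mitosis, was at 136, 76.2 and 42.1 CPM (−1.35, SE 0.14, adjusted p = 3.03e-19). Bub1, of the spindle checkpoint, was at 21.4, 13.6 and 9.87 CPM (−1.01, SE 0.26, adjusted p = 0.000854). Replicate 2 was lower than replicate 1 in Cdk1, Bub1 and also Ube2c, at 489, 395 and 258 CPM, so part of this list varied between the E10.5 libraries. Without replicate 2 the changes of Cdk1 and Bub1 were −0.98 and −0.79 and not called, and without replicate 1 Ube2c (−1.03) and Cenpf (−1.05) were called. Of 15 S phase genes 14 were negative, 12 with library totals, 5 were lower at an adjusted p under 0.05, and 1 was called, Tyms, which makes thymidylate, at 74.7, 24.0 and 23.0 CPM (−1.81, SE 0.17, adjusted p = 3.35e-23). In every library the summed S phase list was lower in selected cells than in other barcodes, at 703 against 1309 CPM at E8.5 and at 580 and 536 against 1134 and 1121 CPM at E10.5. The summed G2/M list went from 1806 to 1516 and 990 CPM in selected cells, and from 2105 to 1906 and 1889 CPM in other barcodes. No gene of either list was called for a stage change that differed between selected cells and other barcodes.

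Cyclins and their inhibitors gave 1 call among 9, Cdkn1a, beside 4.96% of all genes called higher and 3.51% called lower. Ccnd2, a D cyclin of the heart, was at 582, 856 and 713 CPM and was not called. Cdkn1c, the imprinted inhibitor p57, was at 668, 1103 and 1043 CPM with a log2 change of 0.54 (SE 0.10, adjusted p = 8.30e-07), which was −0.22 and did not pass without the skeletal-marked cells (SE 0.10, adjusted p = 0.0875). Of 11 imprinted growth genes 3 were called higher, and without the marked cells 1, Dlk1, a Notch ligand relative, at 43.8, 156 and 155 CPM (log2 change 1.68, or 1.21 without them). Meg3, a long noncoding RNA of the same locus, was at 382, 874 and 1228 CPM, with a change of 1.32 that fell to 0.32 without the marked cells, and Peg10 fell likewise from 1.59 to 0.87. Of 8 genes linked to early embryonic cells and the Lin28 axis, 2 were lower. Lin28a, which blocks the maturation of let-7, was at 54.9, 20.6 and 11.8 CPM (−1.90, SE 0.19, adjusted p = 1.13e-20), and in other barcodes at 91.4, 32.4 and 32.9 CPM. The other was Tdgf1.

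Markers of other cell types were followed beside these results, again with 4.96% of all genes called higher and 3.51% called lower. The erythroid list had 5 of 6 tested genes higher at E10.5, with Hbb-y, an embryonic globin, at 45.9, 264 and 616 CPM in selected cells and at 1419, 3027 and 3310 CPM in other barcodes. The median cell held 111 CPM of the list at E8.5 and 535 and 549 CPM at E10.5, close to the 109, 553 and 554 CPM of the median other barcode. Of the neural list 5 of 11 were higher (4 of 10 without the marked cells), from 52.6 CPM in sum to 148 and 132 CPM, and the mesenchymal list 5 of 10 higher, from 60.3 CPM to 127 and 110 CPM, both below their level in other barcodes in each library. The endothelial list had 2 of 8 lower (1 of 7 without the marked cells), with Egfl7 at 73.7, 35.9 and 28.6 CPM and sums of 133, 68.9 and 71.7 CPM. The epithelial list had 3 of 4 lower, with Krt8 at 103, 43.6 and 46.7 CPM and Krt18 at 88.9, 39.9 and 50.4 CPM, genes that early heart muscle also makes, Krt18 not being called without E10.5 replicate 1 (−0.93), and Foxa2, which defines endoderm, at 0.515, 2.33 and 0.329 CPM. The epicardial list had Tbx18 higher and Aldh1a2, the retinoic acid enzyme, lower, at 10.3, 3.33 and 1.98 CPM. The part of these cell types in the stage differences was not tested.

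Whether a stage difference was particular to the selected cells was asked with an interaction term over the summed UMIs of selected cells and other barcodes of the 3 libraries, again with 1 residual degree of freedom. Of 16679 genes, 142 (0.851%) had a larger E10.5 over E8.5 ratio in selected cells and 68 (0.408%) a smaller one, and without the skeletal-marked cells these counts were 60 (0.362%) and 47 (0.283%). Of the 210 genes, 92 were called again without the skeletal-marked cells, and 122 without doublet-marked barcodes. Cck had the strongest of the smaller ratios among the named genes, lower by 2.83 (SE 0.12, adjusted p = 1.35e-12). In other barcodes Cck was at 6.32, 8.68 and 11.5 CPM. Gja1 rose by 1.74 relative to other barcodes (SE 0.31, adjusted p = 0.00185), where it was at 43.6, 50.8 and 50.6 CPM. Wnt2 fell by 1.21 relative to them (SE 0.13, adjusted p = 4.44e-06), and Rspo3 rose by 1.15 (SE 0.18, adjusted p = 0.000356). For Pln and Nppb the interaction did not pass (0.29 and 0.82, adjusted p = 0.843 and 0.833). Their level in other barcodes was at most 0.462 and 0.141 CPM and was higher at E10.5 too. Other barcodes include those that narrowly missed the rule, and free RNA was not corrected for. At such levels the interaction therefore cannot decide whether the rise of Pln and Nppb was particular to the selected cells.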

How the data were processed

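Single cells of mouse embryos were profiled with droplet-based 3′ RNA sequencing. The matrices deposited by the authors hold raw UMI counts, whole numbers without normalization, and those of the E8.5 and E10.5 libraries list 27998 genes and 737280 barcodes, cells or not. Per the labels, cells were freed with trypsin and libraries made with version 2 chemistry, while the methods of the study name collagenase II and version 3. The submitters' processing notes name Cell Ranger 2.1.1, Seurat 3.1.1 and the build mm10. UMIs of a library are counted once per molecule, and free RNA was not corrected for. No per-sample columns were left out.

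Barcodes of replicate 2 of E8.5 and of replicates 1 and 2 of E10.5 were read, and selected as described in the report. Doublets were kept in the main analysis: Scrublet in scanpy 1.11.5 marked 8, 461 and 505 barcodes at its own threshold (0.141, 3.14 and 3.54%), which did not work at E8.5, so the number expected at 0.8% per 1000 barcodes was marked (256, 1721 and 1632) and left out in an alternative. Of the selected cells 19 of 163, 45 of 192 and 46 of 207 were marked, beside 4.53%, 11.7% and 11.4% of all barcodes. UMI counts were summed per library over selected cells and over other barcodes and tested with the quasi-likelihood test of edgeR 4.0.16 in R 4.3.3, with TMM factors, edgeR's filter on low counts and Benjamini-Hochberg adjustment over all genes tested. SE is the size of the log2 change divided by the square root of F. The rule genes were not tested. Cells were thinned to 2000 UMIs for shares of cells with a UMI, and a cell was marked as skeletal at 3 UMIs or more over 10 genes. The scripts were tested on simulated data. Alternatives were DESeq2 1.42.0, other scalings, filters, floors and ceilings, and a fit over 9 libraries of E8.5 to E16.5. That fit was also run without each E10.5 library.

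The members, the 30 gene lists and the rules were chosen with earlier results of these data known. Genes were named by this rule: the rule genes; in each list up to 5 called genes by size of change and up to 3 not called by level; over all genes 10 called in each direction with at least 50 CPM at the higher stage and at least 2 times the level of other barcodes; and the genes of the chamber, canal and outflow lists. Further structural genes and Fxyd1 were chosen after their values were seen. Some genes that the rule names are not reported here. Promoters and motifs were read from RefSeq on GRCm38.p6, gene positions from GENCODE on GRCm38, which is the build of mm10.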

Additional observations from a re-analysis of the deposited data

Results flagged for a closer look

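For 16 of the named genes the E10.5 over E8.5 ratio in the early cardiomyocytes differed from that in the other barcodes of the same libraries, by edgeR's interaction term at an adjusted p under 0.05 and at least 2-fold, both with and without the skeletal-marked cells. Named genes with a stage value numbered 161. Over all genes tested, 0.851% had a larger and 0.408% a smaller ratio in selected cells, and 0.362% and 0.283% without the skeletal-marked cells. Many named genes were chosen for a stage call or for a level above other barcodes, so their count is not a separate result. Values are the difference of the 2 log2 ratios. The ratio was larger in cardiomyocytes for Kcnj3 (5.18, on 2 UMIs at E8.5), Gja1 (1.74), Krt19 (1.56), Bmp2 (1.54), Rspo3 (1.15) and Hand1 (1.09), and for the neural gene Sox2 (1.67) and the globins Hbb-y (2.11) and Hba-x (1.90). It was smaller for Cck (−2.83), the T-box gene Tbx2 (−2.38), the peptide hormone gene Adm (−1.82), the vascular genes Kdr (−1.36) and Egfl7 (−1.12), Wnt2 (−1.21) and Etfa (−1.11), a subunit of the electron transfer flavoprotein.

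Tbx2 was at 12.4, 13.0 and 11.2 CPM in the cardiomyocytes of the E8.5 library and the 2 E10.5 libraries, and at 1.25, 6.81 and 6.49 CPM in other barcodes, so the difference lay in the other barcodes. Likewise Adm was at 31.4, 26.6 and 20.7 CPM in cardiomyocytes and at 1.31, 3.41 and 3.91 CPM elsewhere, and Hand1 at 39.2, 50.6 and 45.4 CPM against 16.7, 10.1 and 10.2 CPM. For Bmp2 both classes moved, from 32.2 to 44.9 and 62.9 CPM in cardiomyocytes and from 3.35 to 2.02 and 2.00 CPM in other barcodes. Krt19 was at 36.3, 44.6 and 66.2 CPM in cardiomyocytes and at 14.1, 7.44 and 7.84 CPM in other barcodes. The globin sums of E10.5 replicate 2 held an extreme cell, with Hbb-y at 30786 CPM against an upper quartile of 401 CPM and Hba-x at up to 9626 CPM against 121 CPM. The median cell held 111, 535 and 549 CPM of the erythroid list, close to the 109, 553 and 554 CPM of the median other barcode. Sox2 stayed below its level in other barcodes, at 3.61, 27.6 and 13.5 CPM against 54.0, 104 and 98.0 CPM.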

How the results depend on the processing

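No paired analysis was possible, because the stages come from different embryos and replicate numbers do not link their libraries. Stage values without an E10.5 library come from a fit of 8 libraries with the hearts of E12.5 to E16.5, so more than 1 library differs from the main fit. There each lone library is assumed to vary like the rest. Without E10.5 replicates 1 and 2, 893 of 893 and 894 of 895 main calls with a value kept their direction. Not all of them were called again. The calls were chosen from these same libraries, and each fit keeps the same E8.5 library. A kept direction was therefore largely set in advance. With all 9 libraries of E8.5 to E16.5, 835 of the 905 main calls were made again. In the main fit the stage calls were 530 higher and 375 lower. They fell to 0 and 0 without the filter on low counts, to 76 and 182 with DESeq2 and to 140 and 109 with cells thinned to 2000 UMIs, and were 788 and 237 with library totals. Under the 5% mitochondrial ceiling of the study they were 524 and 279, and 665 of the 905 were made again. Of the 905 calls 704 were made again without the skeletal-marked cells and 251 with DESeq2, and none was called in the opposite direction under any alternative. Alternatives chosen after seeing the data gave 246 and 201 calls in cells with a Myl2 UMI, where Tnnc2 (−3.13) and Mylpf (−0.59) turned, 387 and 426 in cells without one, where more calls were lower than higher, and 428 and 376 without skeletal-marked cells and barcodes below 1% mitochondrial UMIs. The interaction calls, 142 and 68, were 49 and 33 with DESeq2, 60 higher without skeletal-marked cells, 37 and 33 without barcodes below 1% mitochondrial UMIs as well, and 2 and 5 after thinning. After thinning 207 of the 210 interaction calls still had a value, of which 194 kept their direction and 6 were called again. The cause of these differences was not tested. Leaving out an E10.5 library leaves the interaction no residual degree of freedom, so it was not run. Of 2461 values of 161 named genes, 2206 kept direction and call, 227 lost the call, 26 gained it and 2 turned.

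The selected share was 0.940 and 1.02% in E10.5 replicates 1 and 2 at the study's floors, 1.08 and 1.11% at 1000 CPM, and 0.864 and 1.08% under 5% mitochondrial UMIs. At E8.5 it was 2.89, 2.62 and 2.67% under these settings, so the ceiling lowered E10.5 replicate 1 the most, from 1.31%. Without thinning, cells with a UMI were 72.4, 62.0 and 65.7% for Myl2, 38.0, 50.5 and 45.4% for Nr2f2, and 40.5, 41.1 and 35.7% for Nppa, against 24.5, 21.9 and 21.7% for Nppa after thinning. Depth limits genes below about 5 CPM, which rest on few UMIs per library.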

Other observations

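A few genes outside the lists were chosen after their values were seen. Cdh2, the N-cadherin that joins heart muscle cells, was called higher at E10.5 by 1.17 on the log2 scale (SE 0.14, adjusted p = 2.38e-14 in edgeR), and Srl, the calcium-binding sarcalumenin of the reticulum, by 1.21 (SE 0.18, adjusted p = 3.98e-10). Pdgfa, a growth factor of mesenchyme, was at 21.9, 65.9 and 71.1 CPM in the E8.5 library and the 2 E10.5 libraries (1.50, SE 0.19, adjusted p = 2.60e-13), while in other barcodes it was at 43.0, 39.3 and 38.2 CPM, and its interaction was 1.87 (adjusted p = 6.49e-07). Dsp, the desmosomal protein desmoplakin, was not called between the stages (0.36), and its ratio was larger than in other barcodes by 1.36 (SE 0.18, adjusted p = 7.63e-05). S100a1, a calcium sensor of heart muscle, was just under 2-fold (0.97, SE 0.18, adjusted p = 5.55e-07), was called without the skeletal-marked cells (1.03), and its interaction was 2.33 (adjusted p = 3.42e-07).

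The selected cells with less than 1% mitochondrial UMIs numbered 19 at E8.5 and 20 and 18 at E10.5. The class with a UMI of neither Myl2 nor Nr2f2 after thinning held 39.1% of unmarked cells at E8.5 and 33.7% and 30.2% at E10.5. In it Myl7 was at 16729, 15661 and 13173 CPM and Nppa at 182, 777 and 687 CPM.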
